A study of Homo sapiens with 3 samples.

Results

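The HOX gene clusters were taken as 4 stretches of the hg19 genome, and the members are the binding summits of HA-tagged TFE3 that fall inside them. HOXA was set as chr7:27130001-27260000 (130 kb, band 7p15.2), HOXB as chr17:46600001-46810000 (210 kb, 17q21.32), HOXC as chr12:54330001-54450000 (120 kb, 12q13.13) and HOXD as chr2:176950001-177060000 (110 kb, 2q31.1). The windows were set by position, and 38 HOX genes in them, from HOXA2 to HOXD13, were considered. The members were chosen with earlier results of these data known. Replicate 1 had 48 summits in the 4 windows, of 62287 on chromosomes 1 to 22 and X, and replicate 2 had 63 of 72647. A summit was called shared when summits of the 2 libraries were each the nearest of the other and lay within 100 bp, which gave 36 shared summits in the clusters of 47396 in all.

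The data are ChIP-seq of HK-2 cells, a line of human kidney proximal tubule epithelium, that carry an HA-TFE3 gene switched on by doxycycline. All 3 samples, 2 HA-TFE3 ChIP libraries and 1 input DNA library, came from this line, and the tagged protein is supplied in addition to whatever TFE3 the cells make. The protocols describe culture for 24 h with or without 0.2 µg/ml doxycycline but the labels do not tie either state to a library, so no induced and uninduced cells are compared. Whether the ChIP libraries stem from separate cultures is not labelled, and their spread may therefore be technical. A list for the input was not analysed here.

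HOX genes encode homeodomain transcription factors that give cells their position along the body axis. They stand in 4 clusters in which the order of the genes follows the order of their expression along the embryo, and in cells that do not use them they are covered by Polycomb repression. In the kidney, HOXA11, HOXC11 and HOXD11 act together when the metanephros forms, and kidney epithelium is known to keep a part of its HOX expression in the adult. TFE3 belongs to the MiT/TFE family of leucine zipper factors, which bind E-box sequences such as CACGTG and control lysosomal and autophagy genes. In RefSeq order the low-coordinate end of the windows is the HOXA2 end of HOXA and the HOXB1 end of HOXB. In HOXC and HOXD it is the HOXC13 and the HOXD13 end, so those clusters run the other way.

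No annotation of hg19 was used here, so a summit is given by its base and by its place between the 2 ends of its cluster, not by its nearest gene. The score is the authors' own value for each summit, on a scale not given in the sources used here, and its percentile is its rank within its own list. The median score was 8.55 in replicate 1 and 8.38 in replicate 2. The lists hold no read counts, so the depth is unknown.

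Shared summits of HA-TFE3 were denser than the genome mean in the HOXA, HOXB and HOXC clusters and close to it in HOXD. HOXA held 9.23 shared summits per 100 kb (95% exact Poisson interval 4.77 to 16.1), HOXB 7.14 (3.998 to 11.8), HOXC 5.83 (2.35 to 12.0) and HOXD 1.82 (0.220 to 6.57). The mean over all chromosomes used was 1.56 per 100 kb, which lies below the intervals of HOXA, HOXB and HOXC and inside that of HOXD. The intervals cover only counting error. Summits close together are not independent of each other, so the tests over summits describe these lists.

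When all summits of a library were divided by its mean density over the genome, HOXA stood at 6.0 ± 1.06 (SD, n = 2). It was 4.63 ± 0.35 in HOXB, 3.34 ± 0.70 in HOXC and 3.04 ± 0.54 in HOXD. All 4 clusters thus lay above the genome average in both libraries, by more than the spread between them. The lowest of the 8 values was 2.66, in HOXD of replicate 1. The flanks, 2 stretches of the same length as the cluster directly on its left and right, stood at 0.94 ± 0.27 for HOXA, 3.76 ± 0.10 for HOXB, 0.29 ± 0.16 for HOXC and 0.71 ± 0.07 for HOXD.

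**Figure D1:**
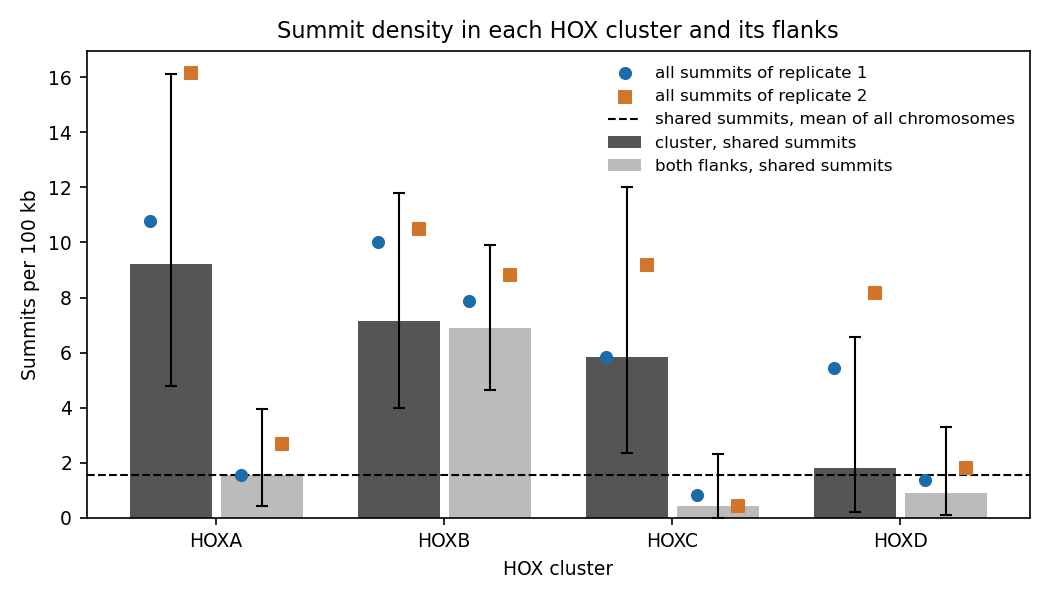
Summits per 100 kb (vertical axis, from 0) in each HOX cluster and in its 2 flanks together. Bars are shared summits with 95% exact Poisson intervals, points are all summits of each library, and the dashed line is the mean of shared summits over all chromosomes, 1.56. HOXA and HOXC rise above their flanks, at 9.23 against 1.54 and 5.83 against 0.42, while HOXB, at 7.14, stands beside flanks at 6.90.

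The HOXA cluster stood out from its surroundings. It held 12 shared summits, against 3 in the left flank and 1 in the right flank. This is a 6.0-fold density (95% exact interval 1.82 to 25.5), with a two-sided exact binomial p of 0.000792 and 0.00317 after Benjamini-Hochberg adjustment over the 4 clusters. Replicate 1 had 14 summits against 4, and replicate 2 had 21 against 7, folds of 7.0 and 6.0.

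The 6 shared HOXA summits with the highest mean score percentile all lay between the HOXA2 end and the middle of the window. The highest was at base 27174216, with a score of 18.4 in replicate 1 and 19.4 in replicate 2, the 81.3rd and 82.5th percentile. Base 27183461 scored 20.04 and 11.8. Base 27160189 scored 14.04 and 12.9, with its summits 97 bp apart, the widest shared pair of the clusters. These are middling to high ranks in both lists.

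Base 27155118 scored 9.60 and 13.6, base 27170626 scored 8.65 and 9.495, and base 27135754 scored 11.4 and 6.95. A pair of other HOXA summits differed widely between the libraries. Base 27158010 was at the 74.8th percentile in replicate 1 and the 11.4th in replicate 2, and base 27219535 at the 59.7th and 3.89th. When the window is divided into 3 equal parts, the part at the HOXA2 end held 6 shared summits, the middle 4 and the part at the HOXA13 end 2. The longest stretch between shared summits was 19.4 kb, between bases 27135754 and 27155118. After base 27224190 no shared summit followed within the cluster.

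The HOXB cluster was dense, without a detectable difference from what lies around it. It held 15 shared summits, with 14 in the left flank and 15 in the right flank. The fold was 1.03 (interval 0.515 to 1.99, two-sided exact binomial p = 1, and 1 after adjustment). Replicate 1 had 21 summits against 33 in the flanks and replicate 2 had 22 against 37, folds of 1.27 and 1.19. The interval allows a difference of up to 1.99-fold, so equality is not shown. The remainder of band 17q21.32 held 5.37 shared summits per 100 kb, also above the genome mean.

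The HOXB summit with the highest rank was at base 46696143, the same base in both libraries, with scores of 24.1 and 23.7. Next were base 46671411 (18.2 and 16.4), base 46662843 (14.9 and 18.9) and base 46655774 (12.6 and 13.6). Each of these 4 was at the 67.4th percentile or higher in both lists. Base 46682362 scored 8.79 and 11.3, and base 46724259 scored 12.9 and 7.32. Base 46689578 was the other pair on a single base, with 11.2 and 6.95.

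Within HOXB the summits gathered in the middle of the window. The 70 kb in the middle held 9 shared summits, the 70 kb at the HOXB1 end 4 and the 70 kb at the HOXB13 end 2. In fixed bins of 10 kb from the start of each cluster window, the bin from base 46680001 to 46690000 was the fullest of the 4 clusters. It held 4 shared summits, and 5 summits in each library. Stretches of 10 kb placed otherwise were not counted. Bases 46749167 and 46801997 are the neighbouring shared summits farthest apart in the 4 clusters, 52.8 kb, on the side of HOXB13, whose gene is known to stand apart from the rest of the cluster. Just outside the window edge at the HOXB1 end, 0.217 kb before it in replicate 1 and 0.218 kb in replicate 2, lay a shared summit that the rule does not count.

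HOXC stood alone in its immediate surroundings. It held 7 shared summits, with 0 in the left flank and 1 in the right, a 14-fold density (interval 1.80 to 631). The two-sided exact binomial p was 0.00259, and 0.00518 after adjustment. The nearest summit to the left was 189.4 kb away in both libraries, and the nearest to the right 79.6 kb. Replicate 1 had 7 summits against 2 and replicate 2 had 11 against 1.

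This contrast of HOXC varied with the settings, most with how far the flanks reached. With a pairing limit of 50 bp the fold was 10 (5 against 1, adjusted exact binomial p = 0.0357). With the bounds moved 10 kb inwards it was 6.0 (6 against 2, adjusted exact binomial p = 0.0393). With flanks of 2 cluster lengths the fold was 1.75 (7 against 16 shared summits, adjusted exact binomial p = 0.266), and with flanks of 1 Mb it was 1.62 (7 against 72, adjusted p = 0.295). HOXA, treated the same way, kept a fold of at least 4.20 and an adjusted p of at most 0.0331 under the 8 alternatives that gave a value. The remainder of band 12q13.13 held 4.15 shared summits per 100 kb, against 5.83 in HOXC.

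The HOXC cluster also had the highest-ranking summits of the 4. The summit at base 54332390, close to the HOXC13 end of the window, scored 45.3 in replicate 1 and 34.6 in replicate 2, the 98.6th and 95.2nd percentile. Base 54412084, in the part towards HOXC4, HOXC5 and HOXC6, scored 19.7 and 34.6. Base 54430784 scored 12.3 and 15.1, and base 54410614 scored 9.91 and 9.69. The summit at base 54332390 was the only shared HOX summit above the 90th percentile of both lists.

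The other 3 HOXC pairs ranked higher in replicate 2 each time. Base 54389385 scored 6.71 and 12.9, base 54399918 scored 4.46 and 11.8, and base 54378812 scored 4.83 and 6.95. Between the first shared summit and the next lay 46.4 kb, from the HOXC13 side towards the middle of the cluster. Replicate 2 listed 1 summit in that stretch, at base 54368455, with a score of 5.56, the highest-ranking HOXC summit that only 1 library had.

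HOXD differed from the other clusters in what the libraries had in common. The list of replicate 1 had 6 summits there and that of replicate 2 had 9, but only 2 were shared. Base 176962517 scored 6.02 and 5.31, and base 176991953 scored 7.12 and 6.95. Both were below the median score of their list, and so was every other HOXD summit of either library. The highest scores were 7.12 in replicate 1 and 8.30 in replicate 2.

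Each flank of HOXD held 1 shared summit, so the fold was 2.0 with a wide interval (0.145 to 27.6, adjusted exact binomial p = 0.807). Counted in replicate 2 alone, HOXD had 9 summits against 4 and the difference passed the threshold (4.50-fold, adjusted exact binomial p = 0.0186). In replicate 1 alone it had 6 against 3 and did not (4.0-fold, adjusted exact binomial p = 0.0912). Both shared summits of the flanks scored higher than those of the cluster, with 24.2 and 20.7 at base 176867048 and 9.96 and 14.1 at base 177134139.

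**Figure D2:**
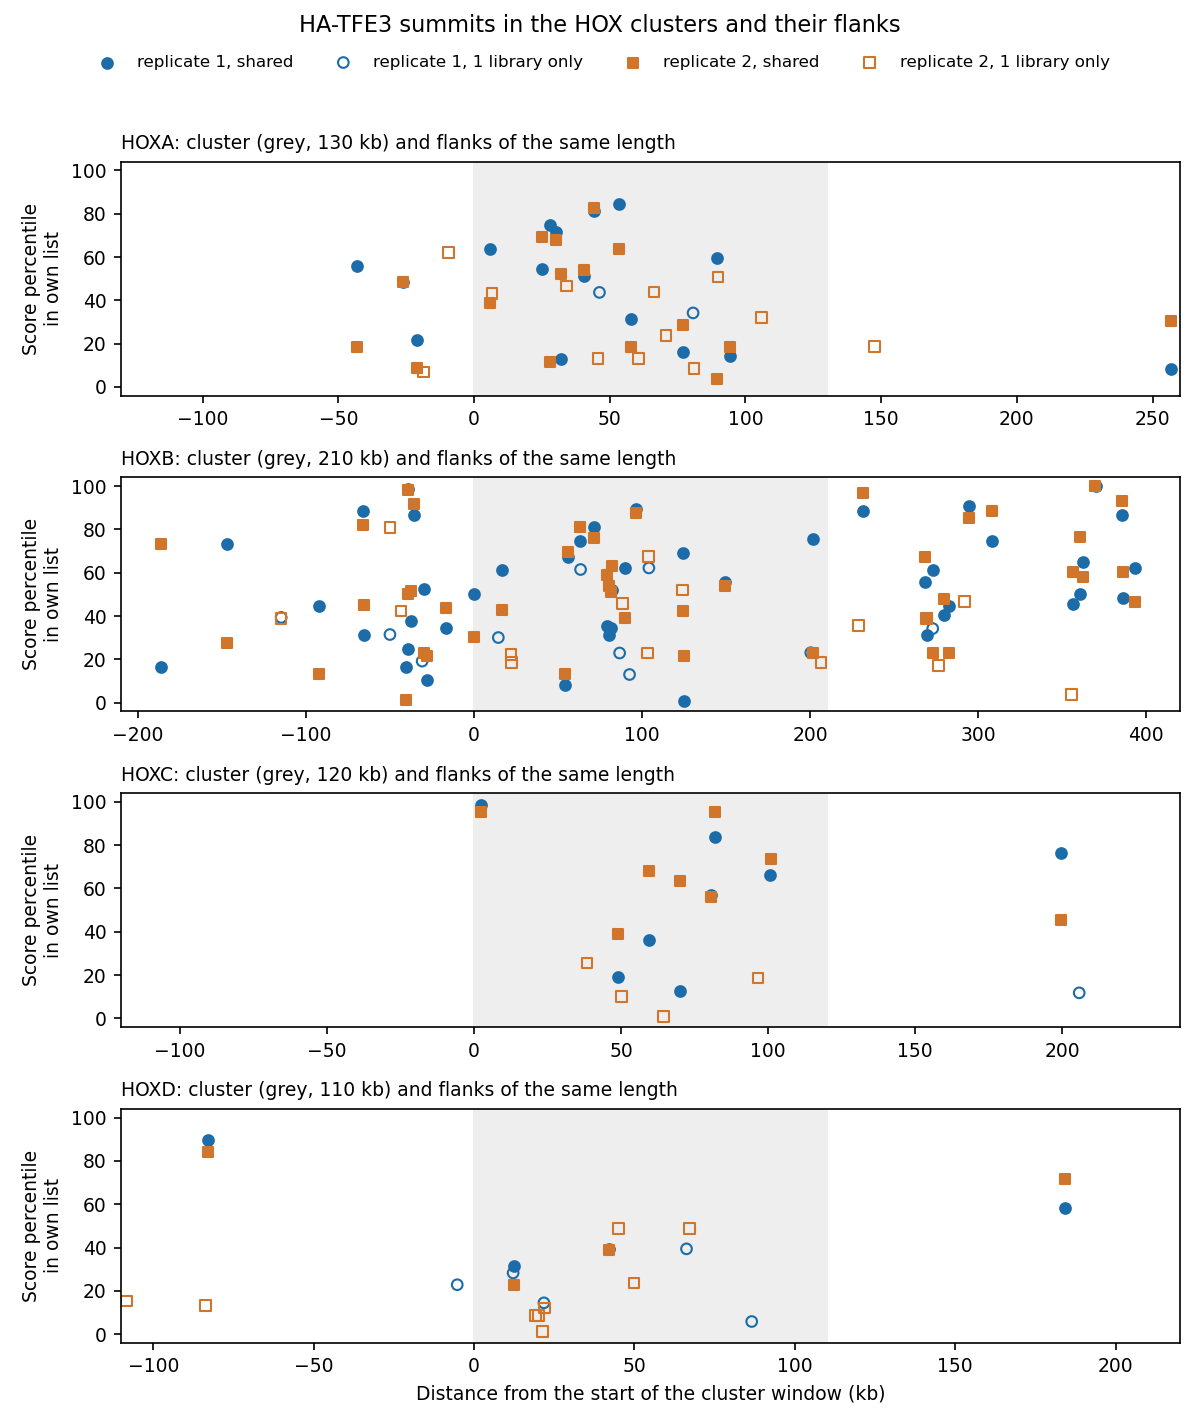
Position of every summit in the HOX clusters (grey) and in flanks of the same length, as distance from the start of the cluster window in kb, against the score percentile in its own list. Circles are replicate 1 and squares replicate 2, filled where the summit was shared and open where 1 library had it. Few summits lie in the white areas beside HOXA and HOXC, HOXB summits continue on both sides, and all HOXD summits in the grey area lie below the 50th percentile.

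Over the 4 clusters together, 36 shared summits stood against 36 in flanks of 2 times the length, a 2.0-fold density (interval 1.22 to 3.27, two-sided exact binomial p = 0.00378). Replicate 1 alone gave a fold of 2.29 and replicate 2 alone 2.57. HOXB had 29 of the 36 flanking summits beside it. With a pairing limit of 50 bp the fold was 1.67 (25 against 30, exact binomial p = 0.0631). With the lists limited to their 10000 highest scores the direction turned, with 2 shared summits in the clusters and 5 in the flanks (0.800-fold, exact binomial p = 1).

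The clusters were then compared with each other. In density, none of the 6 pairs passed the threshold after adjustment over the 6. The widest difference was HOXA over HOXD, 5.08-fold (interval 1.13 to 46.7), with an exact binomial p of 0.0281 and 0.168 after adjustment. HOXA over HOXB was 1.29-fold (0.552 to 2.96) and HOXB over HOXC 1.22-fold (0.470 to 3.55). With at most 15 summits in a cluster these intervals are wide, and a 2-fold difference between HOXA, HOXB and HOXC was not detectable.

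The contrast with the flanks differed between some of the clusters, but this depended on the settings. The fold of HOXA was 5.80 times that of HOXB (two-sided Fisher's exact p = 0.00768, adjusted over 6 pairs p = 0.0230), and the fold of HOXB was 0.0739 times that of HOXC (p = 0.00722, adjusted p = 0.0230). The other 4 pairs did not pass, with adjusted p from 0.473 to 0.631. This test was added after the values were seen. It no longer passed for either pair with a pairing limit of 50 bp (adjusted exact p = 0.0695 for both), with the bounds moved 10 kb inwards (0.0831 and 0.141), with summits above the list median (adjusted exact p = 0.130 for both) or with the 10000 highest-scoring ones (1 for both), the last 2 with no ratio because a count was 0. For HOXB and HOXC it did not pass with flanks of 2 lengths (0.762 times, adjusted exact p = 0.938) and turned in direction with flanks of 1 Mb (1.42 times). HOXA and HOXB also did not pass with those flanks (1.98 times, adjusted exact p = 0.353), nor HOXB and HOXC in replicate 1 alone (0.182 times, adjusted exact p = 0.196).

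Set beside the whole genome, the clusters were crowded but not extreme. Of 23344 windows of 130 kb, 1.71% held at least the 12 shared summits of HOXA, and the fullest held 31. For HOXB, 3.09% of 14447 windows of 210 kb held at least 15. For HOXC, 7.14% of 25290 windows of 120 kb held at least 7, and for HOXD 35.7% of 27589 windows of 110 kb held at least 2. The median window held 1 shared summit at the lengths of HOXA, HOXC and HOXD and 2 at that of HOXB, so the HOXD cluster lay near the median window. The windows and the genome mean take whole chromosome lengths, without leaving out stretches that cannot be mapped. No shared summit was present in 34.5% of windows at the length of HOXB and 47.2% at that of HOXD. With all summits of a library, HOXD rose to the most crowded 13.3% in replicate 1 and 7.63% in replicate 2.

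**Figure D3:**
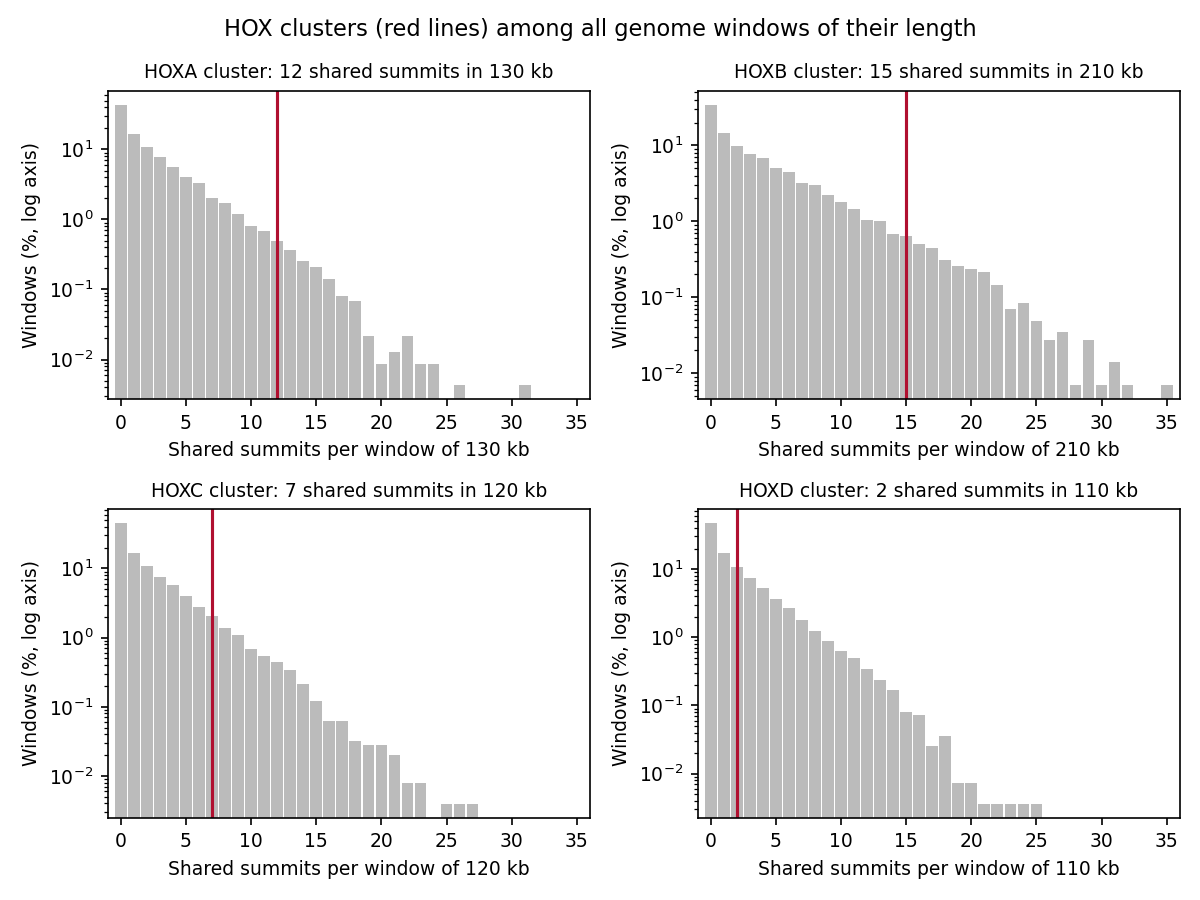
Share of genome windows in percent (log axis) by their number of shared summits, for windows of the length of each HOX cluster. Red lines mark the clusters, with 12 in HOXA, 15 in HOXB, 7 in HOXC and 2 in HOXD. The lines of HOXA and HOXB lie far along the tail, reached by 1.71% and 3.09% of windows, and that of HOXD among the common windows.

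The share of HOX summits found in both libraries was below that of the rest of the list, without a detectable difference. In replicate 1, 36 of 48 HOX summits were shared, 75.0% (95% exact binomial interval 60.4 to 86.4), against 76.1% of the whole list (two-sided Fisher's exact p = 0.866 against all other summits). In replicate 2, 36 of 63 were shared, 57.1% (44.0 to 69.5), against 65.2% (Fisher's exact p = 0.187). The intervals are wide, so a difference of several percentage points was not detectable. In the flanks of all clusters the shared part was higher, 85.7% in replicate 1 and 73.5% in replicate 2. The clusters and flanks were not tested against each other for this. By cluster, the shared part of replicate 1 was 12 of 14 in HOXA, 15 of 21 in HOXB, 7 of 7 in HOXC and 2 of 6 in HOXD. In replicate 2 it was 12 of 21, 15 of 22, 7 of 11 and 2 of 9. HOXD had the smallest share in both libraries, a description that was not tested.

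In each cluster the highest-ranking summit without a partner came from replicate 2. In HOXB it was base 46703961, with a score of 12.8, and the nearest summit of replicate 1 was 108 bp away at base 46704069 with 11.2. It is the pair just outside the limit, as base 27160189 of HOXA at 97 bp is the one just inside. In HOXA it was base 27219878, with 8.57, and in HOXC base 54368455, named above. In HOXD bases 176994982 and 177017206 tied, with 8.30 each.

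Scores in the HOX clusters were ordinary to low. The median percentile of HOX summits was 47.4 in replicate 1 and 42.3 in replicate 2, 44.9 ± 3.6 (SD, n = 2), and that of the flanks was 46.8 ± 2.2. By cluster it was 56.7 ± 0.7 in HOXC, 52.1 ± 5.3 in HOXB, 45.8 ± 9.8 in HOXA and 26.4 ± 4.9 in HOXD. HOXD was the lowest in both libraries. HOXA, HOXB and HOXC came in the same rising order in both, at 52.8, 55.8 and 57.2 in replicate 1 and 38.9, 48.4 and 56.1 in replicate 2, but the ranges of HOXA and HOXB over the libraries overlap. Above the 90th percentile were 1 of 48 HOX summits in replicate 1, against 9.94% of the list, and 2 of 63 in replicate 2, against 9.99%. All 3 belonged to HOXC.

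Shared HOX summits had a median mean percentile of 51.7, against 59.5 over all shared pairs. Of the 36, 1 was above the 90th percentile in both lists, 2.78%, against 9.11% of all pairs, and 4 were above the 80th, 11.1% against 19.5%. These 4 were bases 54332390 and 54412084 of HOXC, base 46696143 of HOXB and base 27174216 of HOXA. The median distance between the 2 summits of a HOX pair was 27.5 bp, against 26 bp over all pairs. By cluster it was 47 bp in HOXA, 20 bp in HOXB, 24 bp in HOXC and 28.5 bp in HOXD, and 7 of the 12 HOXA pairs were found with a limit of 50 bp. These distances were not tested. The libraries ranked them alike only in part. The median difference in percentile between libraries was 12.8 points, against 11.7 over all pairs, and 17 pairs ranked higher in replicate 1 and 19 in replicate 2.

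**Figure D4:**
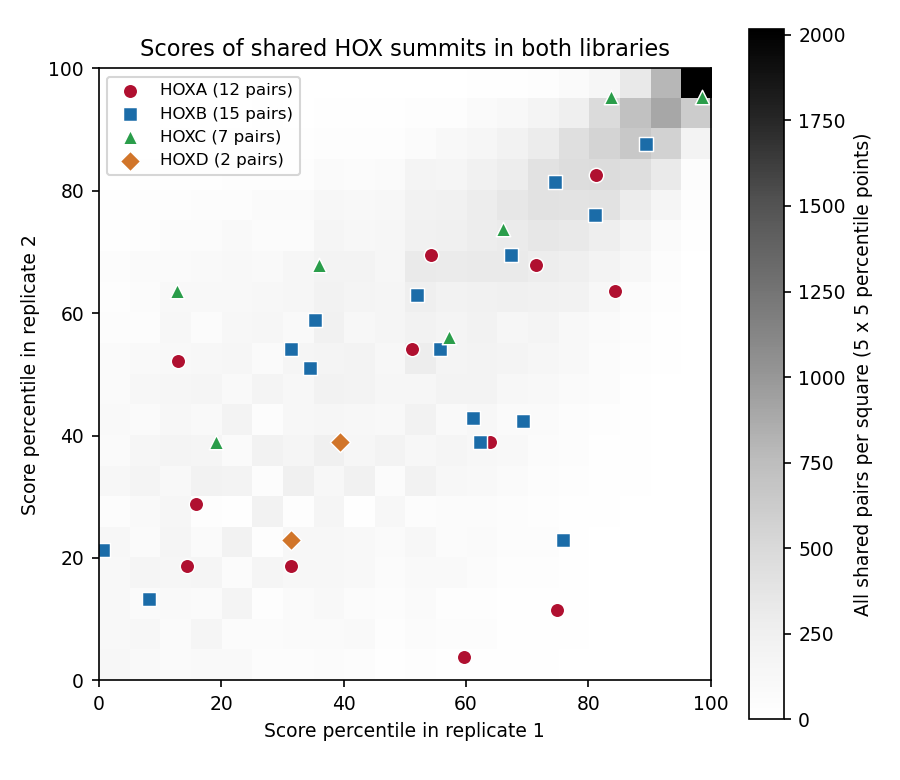
Score percentile of each shared HOX summit in replicate 1 (horizontal axis) and replicate 2 (vertical axis), by cluster, over the number of all shared pairs in squares of 5 by 5 percentile points (grey). Only 1 HOX pair, in HOXC, lies above the 90th percentile in both libraries, and both HOXD pairs lie below the 40th in each.

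Inside the HOXA, HOXB and HOXC windows neighbouring summits of a library lay closer together than in its whole list. Distances across a window edge were left out, while those of the whole list have no such limit. Spacing also follows from density and is not a separate result. The median distance between neighbouring summits was 4.48 kb in HOXA and 3.28 kb in HOXB in replicate 1, and 4.18 kb and 5.18 kb in replicate 2. In the whole lists it was 13.1 and 11.3 kb. HOXC had 10.6 kb in replicate 1 and 7.50 kb in replicate 2. HOXD had 20.2 kb in replicate 1, wider than the list, but 3.94 kb in replicate 2, where 4 of its 9 summits lay between bases 176969211 and 176972036. Of those 4, replicate 1 had none within 100 bp.

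The promoters of the HOX genes were searched for E-box letters, since these are the sequences that MiT/TFE factors are known to bind. RefSeq promoter windows, on GRCh38.p14, run from 250 bases before to 50 after a gene start and matched 20 of the 38 genes, in 26 distinct windows. HOXC4 and HOXC5 share 1 window. Both strands were searched for CACGTG, for the longer TCACGTGA, which contains it, and for TCATGTGA. CACGTG was present in 9 of the 26 windows, 34.6%, against 7.23% of 34943 windows of all genes.

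The genes with CACGTG were HOXA3, HOXA4, HOXA7 and HOXA9 in HOXA, and HOXD1, HOXD3, HOXD10, HOXD11 and HOXD13 in HOXD. HOXA3 had it in 1 of its 7 windows. In HOXD, the cluster with the fewest shared summits, 5 of 8 windows held the letters, against 4 of 16 in HOXA. HOXA3 alone gave 7 of those 16 windows. Counted by gene with a window, CACGTG was present in 5 of 8 in HOXD and 4 of 9 in HOXA. Any of the searched motifs was present in 5 of 8 HOXD genes and 6 of 9 HOXA genes. HOXB1 was the only HOXB gene with a window, and HOXB and HOXC had 1 window each, without a match. TCACGTGA was present in 1 window, that of HOXD11, against 0.979% of all windows, and TCATGTGA in those of HOXA2 and HOXA11, against 1.0%. The median GC content was 58.0% in the HOX windows and 58.7% in all windows, and the median number of CG pairs 22.5 against 14. Whether the CG pairs account for the matches was not tested.

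The window of HOXD11, with TCACGTGA around its CACGTG, and 3 of the 10 windows with a single match, the first in table order, are shown. They were picked by number of matches and then table order, not by cluster, and all are of HOXD. HOXD11, HOXD13 and HOXD10 are genes of the posterior end of the cluster, which pattern limbs and trunk, and HOXD3 lies near the anterior end. Each sequence is the 250 bases before the gene start on the plus strand of GRCh38.p14, 5′ to 3′, with the matched letters in capitals. They lie at chr2:176107030-176107279, chr2:176092471-176092720, chr2:176116528-176116777 and chr2:176157057-176157306, positions of another build than the summits, so no summit was placed on them. A match is a description of letters and not a bound site.
HOXD11: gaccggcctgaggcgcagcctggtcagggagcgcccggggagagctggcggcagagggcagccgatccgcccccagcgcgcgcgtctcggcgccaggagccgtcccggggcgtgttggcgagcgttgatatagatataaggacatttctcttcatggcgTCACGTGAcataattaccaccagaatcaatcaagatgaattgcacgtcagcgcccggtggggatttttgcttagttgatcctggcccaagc
HOXD13: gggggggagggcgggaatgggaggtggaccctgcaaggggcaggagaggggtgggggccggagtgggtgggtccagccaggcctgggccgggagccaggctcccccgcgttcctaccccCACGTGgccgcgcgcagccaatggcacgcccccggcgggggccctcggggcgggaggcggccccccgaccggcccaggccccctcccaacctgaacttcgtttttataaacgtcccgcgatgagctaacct
HOXD10: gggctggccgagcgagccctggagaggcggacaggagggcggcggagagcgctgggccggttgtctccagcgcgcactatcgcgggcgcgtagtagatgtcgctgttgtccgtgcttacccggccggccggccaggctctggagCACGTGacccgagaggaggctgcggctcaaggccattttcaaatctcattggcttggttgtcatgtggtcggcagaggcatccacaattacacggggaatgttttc
HOXD3: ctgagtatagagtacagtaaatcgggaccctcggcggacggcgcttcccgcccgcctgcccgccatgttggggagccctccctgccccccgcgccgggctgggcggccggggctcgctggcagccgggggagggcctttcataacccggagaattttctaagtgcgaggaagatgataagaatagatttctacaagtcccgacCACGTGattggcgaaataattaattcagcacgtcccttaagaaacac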

How the data were processed

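ChIP-seq summits of 2 HA-TFE3 libraries were analysed. Per the submitters' processing notes the coordinates are on hg19, while the aligner, the peak caller, its thresholds and the role of the input were not given in the sources used here. Each deposited list gives 1 bp summits with a score, the authors' own value, used only to rank summits within a list. A caller's threshold and depth set how many summits are listed, so their number does not measure binding. Summits of chromosomes 1 to 22 and X were used (35 and 45 left out) and made 1-based. Shared summits take the position of replicate 1.

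Densities were compared by exact binomial tests, sharing by Fisher's exact test, all two-sided, with a threshold of 0.05. Chromosome lengths came from GenomeInfoDb 1.38.1 and bands from circlize 0.4.16. Python 3.11.15, NumPy 2.4.6, pandas 2.3.3, SciPy 1.17.1 and matplotlib 3.10.9 were used. Pairing, the test against the flanks and the window ranks were tested on simulated data, the other tests were not. The members and lists were chosen with earlier results of these data known. The text names every shared summit in clusters with at most 8, otherwise the 6 with the highest mean percentile, the highest-ranking summit of 1 library, and up to 4 promoters with most matches, ties in table order. Other summits named were chosen after their values were seen. Summits near gene starts and motifs under summits were planned but not run, because hg19 genes and bases were not used here. The promoter sequences are RefSeq's, on GRCh38.p14. Alternatives were other pairing limits, score cut-offs, flanks, bounds, windows and single libraries. The promoters of 1 further gene list are not reported here.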

Additional observations from a re-analysis of the deposited data

How the results depend on the processing

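No paired analysis was possible because only 1 group has summit lists. Over 181 recomputed values, 140 stayed within their limits. For a ratio this means the same direction and side of the threshold, for other values less movement than the spread between libraries. The cause of the rest was not tested. The 181 include the ratio of folds, which was added after the values were seen. They leave out recomputations under the score cut-offs that gave no fold or ratio. The median score percentile of a single library always stays within its limit, because the main value is the mean of the libraries. At 50 bp, HOXB was 0.880-fold its flanks and all 4 clusters 1.67-fold, no longer past the threshold. Among summits above the median, HOXD stood at 0 in the cluster against 2 beside it and HOXB over HOXC at 0.857, while HOXA had 5 against 0 and HOXC 4 against 0, which gives no fold. Among the 10000 highest-scoring summits HOXB was 0.400-fold and the clusters together 0.800-fold their flanks, HOXA was 0 over HOXB and over HOXC, and HOXB over HOXC 0.571. HOXC fell to 1.75-fold with flanks of 2 lengths and 1.62-fold with 1 Mb. Each library alone gave HOXD 4.0 to 4.50-fold. The ratio of folds turned in direction for HOXA over HOXC (3.92 and 2.81 with flanks of 2 lengths and 1 Mb) and HOXC over HOXD (0.438 and 0.729), and with 1 Mb for HOXB over HOXC (1.42) and HOXB over HOXD (1.03).

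The share of windows at least as full moved as follows. For HOXA it was 5.08% at 50 bp, 5.25% above the median and 100% among the 10000 highest-scoring summits, where the cluster held 0. For HOXB these were 4.22, 8.06 and 26.3%, and 2.17 to 2.92% with each library alone. HOXC had 18.0% among the highest-scoring summits and 5.63 to 11.3% in single libraries. HOXD had 30.8% at 50 bp, 26.5% at 500 bp, 100% above the median and among the highest-scoring, 31.0% with the bounds moved inwards, and 7.63 to 13.3% in single libraries. Windows of 50 and 200 bp around summits, and distances of 500 bp and 2 kb to gene starts, were not run.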

Other observations

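The promoters of genes that regulate, neighbour or are related to the HOX clusters were searched for the same letters. Of all RefSeq windows, 7.23% held CACGTG and 0.979% TCACGTGA, and lists this small cannot be told from those shares without a test, which was not run. The chromatin regulators of HOX expression (EZH2, EED, SUZ12, KMT2A, MEN1 and CTCF) had a window for all 6, with 0 matches. Of the ParaHox genes, a sister group of the HOX genes (GSX1, GSX2, PDX1, CDX1, CDX2 and CDX4), 4 of 6 had a window, and GSX2 held CACGTG. The 16 neighbours of the clusters had a window for 12 genes, of which CBX5, HNRNPA3 and LNPK held CACGTG, and HNRNPA3 and LNPK the longer TCACGTGA. CBX5 encodes the heterochromatin protein HP1 alpha, HNRNPA3 an RNA-binding protein, and LNPK the endoplasmic reticulum protein lunapark. Whether TFE3 summits lie at these genes was not tested, since no gene positions on hg19 were used.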
